A study of Mus musculus with 10 samples.

Results

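The genes described are those of the transducins, the G proteins of rod and cone photoreceptors, and of phosducin, their soluble binding partner. They were chosen as the probes whose only gene symbol in the array's annotation was Gnat1, Gnb1, Gngt1, Gnat2, Gnb3, Gngt2 or Pdc. Of these 7 genes, 6 had such a probe and together they held 7 of the 14411 probes with 1 symbol, Gnat2 having 2. Gnb1, the rod beta subunit gene, had none and was not analysed here. Signal was read on 10 Applied Biosystems single-channel arrays, 5 of retina RNA (adult C57/B6 mice, 350 in the pool) and 5 of cortex RNA (19 mice at postnatal day 1 in the pool), the cortex being the common comparison RNA of a study of array platforms. The retina titles also carry the letters P1, which the labels do not explain. The strain of the cortex mice was given as C57/B6 in one label and as Swiss-Webster in another. No transgene, deletion or treatment was named for either pool. Each group was repeat arrays of a single pool, so p-values measure the spread between arrays and not between animals, and tissue, age and possibly strain cannot be told apart.

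Transducin is a trimer of an alpha, a beta and a gamma subunit. Light-activated opsin makes the alpha subunit exchange GDP for GTP and leave the beta-gamma pair, and the free alpha subunit then releases the inhibition of the cyclic GMP phosphodiesterase PDE6, so that cyclic GMP falls and the cation channels of the outer segment close. Rods use the products of Gnat1, Gnb1 and Gngt1, and cones use those of Gnat2, Gnb3 and Gngt2. Phosducin, encoded by Pdc, binds the beta-gamma pair and is abundant in photoreceptors.

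Start regions are shown because all measured members were called higher in retina, and a shared control of these genes was not tested. Upstream sequences were found in the RefSeq table (GRCm38.p6) for 4 of the 7 genes, of which Gngt1, Gnat2 and Pdc had a probe. Each run is the 250 bases before the annotated start, 5' to 3', and capitals mark matches to TAATCC read on either strand (GGATTA on the opposite strand), the core bound by the photoreceptor homeodomain factor CRX.
Gngt1 promoter, chr6:3993758-3994007, + strand: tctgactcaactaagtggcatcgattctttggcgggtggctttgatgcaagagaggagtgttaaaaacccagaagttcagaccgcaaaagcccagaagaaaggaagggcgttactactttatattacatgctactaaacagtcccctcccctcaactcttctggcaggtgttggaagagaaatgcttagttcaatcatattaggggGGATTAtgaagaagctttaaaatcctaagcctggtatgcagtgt
Gnat2 promoter, chr3:108092816-108093065, + strand: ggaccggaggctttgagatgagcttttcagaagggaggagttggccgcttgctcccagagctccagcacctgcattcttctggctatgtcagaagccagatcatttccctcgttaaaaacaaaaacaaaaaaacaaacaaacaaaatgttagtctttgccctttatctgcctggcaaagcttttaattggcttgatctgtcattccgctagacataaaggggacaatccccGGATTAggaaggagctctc
Pdc promoter, chr1:150319167-150319416, + strand: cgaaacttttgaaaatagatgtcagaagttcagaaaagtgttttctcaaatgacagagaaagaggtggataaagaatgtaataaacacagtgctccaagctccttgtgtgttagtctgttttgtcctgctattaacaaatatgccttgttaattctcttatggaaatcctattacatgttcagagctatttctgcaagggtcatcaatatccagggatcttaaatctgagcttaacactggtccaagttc
The Gngt1 window held 1 match, beginning 44 bases before the start, and the Gnat2 window held 1, beginning 19 bases before it. The Pdc window held 0. Of 32851 windows of the same length, 6.25% held TAATCC on either strand. TGCTGA, a half-site of the rod factor NRL, stood in 0 of the 3 windows printed and in 16.1% of all windows, and GGGCGG, the core of an Sp site, in 0 of the 3 and in 32.7%. The window of Gnb1, not printed because the gene was not measured, held 3 matches to GGGCGG and 0 to the other motifs. The 3 motifs did not overlap in these windows. A match is a description of letters only, and the absence of one says nothing of the factor.

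The labelled tissues carried the markers of their names. The median deposited intensity per array lay between 836 and 987 for retina and between 1255 and 1341 for cortex, and values were quantile-normalized on the log2 scale before the comparison. All 3 measured rod markers of 6 listed (Nrl, Prph2 and Cnga1) and all 6 cone markers were higher in retina, and all 3 measured cortical neuron markers of 6 listed (Neurod6, Tbr1 and Bcl11b) were lower. No detection flags came with the values. The 747 probes named for olfactory receptor genes therefore served as a yardstick of dim signal, with 95% of them below 10.77 in retina and below 10.65 in cortex on the normalized log2 scale.

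All 6 measured genes, and all 7 of their probes, were called higher in retina. A call needed a Benjamini-Hochberg adjusted p under 0.05 over all 33012 probes with limma and a difference of at least 2-fold. Of all probes, 12.1% were called higher in retina and 13.3% lower, 25.4% in either direction (3987 higher and 4392 lower, against 2474 higher and 7621 lower without normalization). The median of the 7 differences, all given as retina minus cortex on the log2 scale, was 9.60, against -0.01 over all probes. The 5 retina arrays all lay above the 5 cortex arrays for 6 of the 7 probes, which was so for 19.2% of all probes, and the exception was Gnb3. A difference of at least 32-fold with a call was seen for the 6 probes other than that of Gnb3 and for 0.609% of all probes. In bulk RNA, fewer cells of a type and less RNA per cell cannot be told apart.

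**Figure D1:**
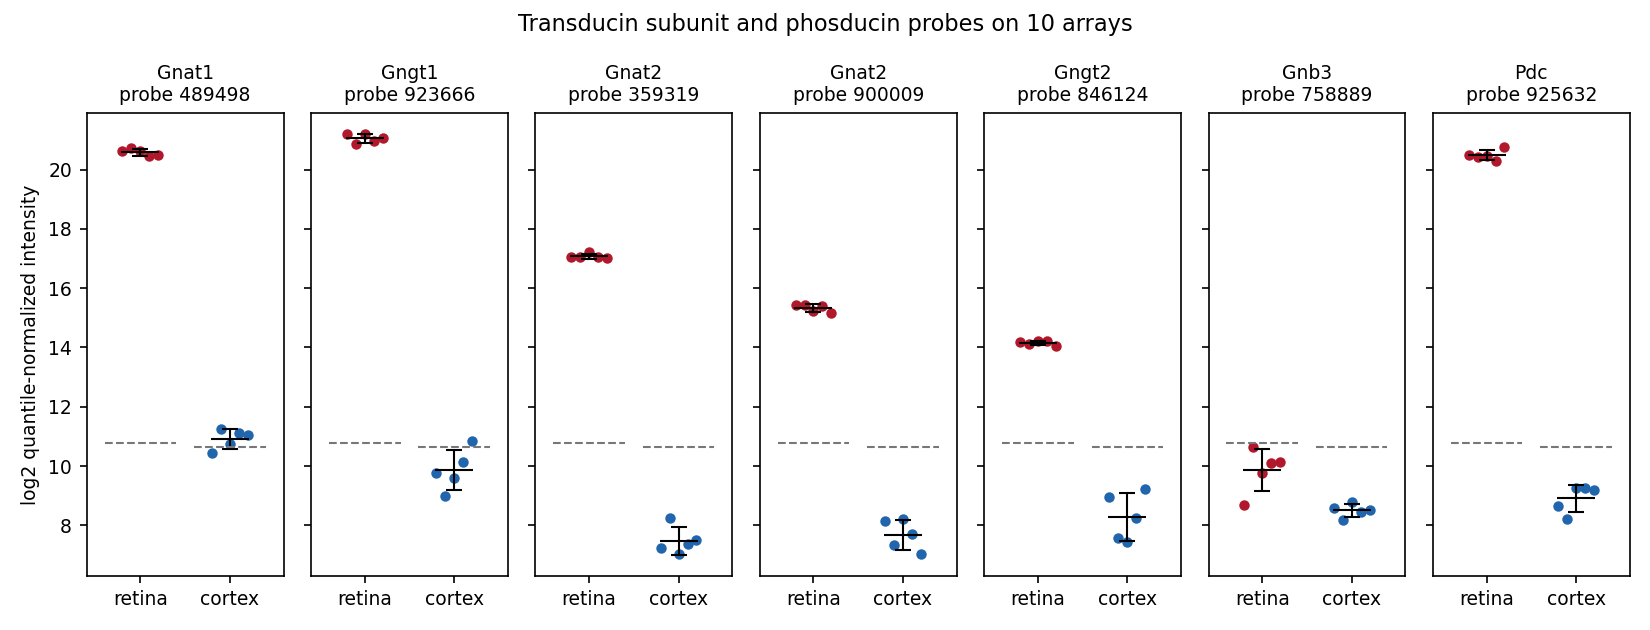
Log2 quantile-normalized intensity of each transducin and phosducin probe on 5 retina arrays (red, left in each panel) and 5 cortex arrays (blue, right), with the mean and SD in black; dashed lines mark the level below which 95% of olfactory receptor probes lay (10.77 in retina, 10.65 in cortex). Retina and cortex are far apart for every probe but Gnb3, whose retina values of 8.70 to 10.63 stay under the dashed line.

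The rod alpha subunit gene Gnat1, whose product switches on rod PDE6, was bright on every retina array. Probe 489498 read 20.61, 20.73, 20.61, 20.46 and 20.49 in retina, against 10.43, 11.26, 10.75, 11.13 and 11.04 in cortex. The groups were separated by a wide gap, and the cortex mean was the only cortex mean among the 7 probes to lie above the olfactory receptor yardstick. On cortex replicates 1 and 3 the probe was below its own array's 95th olfactory receptor percentile (10.84 and 10.90). Its retina mean was 20.58 ± 0.11 and its cortex mean 10.92 ± 0.33 (SD, n = 5 each). The difference was 9.66 (SE 0.12), an 808-fold ratio (limma, Benjamini-Hochberg adjusted p = 4.92e-19).

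The rod gamma subunit gene Gngt1, whose farnesylated product helps to hold transducin at the membrane, was bright on every retina array too. Probe 923666 read 21.19, 20.86, 21.19, 20.97 and 21.06 in retina, against 9.75, 8.98, 9.61, 10.15 and 10.83 in cortex. On 2 of the 5 retina arrays, replicates 1 and 3, this probe held the highest value of the whole array, so that quantile normalization gave both the same 21.19. Their deposited intensities were 2072582 and 2439928. The difference was 11.19 (SE 0.23, limma adjusted p = 1.70e-16), with means of 21.05 ± 0.14 in retina and 9.86 ± 0.68 in cortex. The cortex values were widely spread, and each was below its own array's 95th olfactory receptor percentile.

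The cone alpha subunit gene Gnat2, the cone counterpart of Gnat1, was read by a pair of probes that agreed in direction and not in size. Probe 359319 read 17.05, 17.05, 17.23, 17.04 and 17.02 in retina, against 7.25, 8.25, 7.02, 7.36 and 7.52 in cortex, which left a difference of 9.60 (SE 0.17, limma adjusted p = 2.77e-17). Probe 900009 read 15.42, 15.44, 15.22, 15.40 and 15.16 in retina, against 8.14, 7.34, 8.22, 7.70 and 7.04 in cortex, which left a difference of 7.64 (SE 0.19, adjusted p = 2.85e-15). The first probe's difference exceeded the second's by 1.96 (SE 0.41, exact 2-sided permutation p = 0.00794 over 252 assignments of the arrays, the smallest they can give). On both probes all cortex values were dim: only 7.36% and 16.2% of olfactory receptor probes had a lower cortex mean. Fold ratios of 776 and 199 for the same gene thus rest on a denominator not shown to carry signal. The disagreement between the probes lay mainly in retina, where the first read higher by 1.75 (1.62 to 2.01 per array). In cortex the first minus the second was -0.21 (-1.20 to 0.91).

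The cone gamma subunit gene Gngt2 was even across the retina arrays and uneven across the cortex arrays. Probe 846124 read 14.20, 14.13, 14.22, 14.21 and 14.06 in retina, against 8.96, 7.56, 7.43, 8.24 and 9.21 in cortex. The groups did not overlap, and retina stood well above the yardstick on all 5 arrays. Its retina SD of 0.07 was lower than that of all but 13.7% of probes in the same decile of retina brightness. The difference was 5.88 (SE 0.28), a 59.1-fold ratio (limma adjusted p = 1.17e-11).

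Gnb3, which encodes the beta subunit of cone transducin and is also used by ON bipolar cells, was read by a single probe that was dim in both tissues. Probe 758889 read 8.70, 10.63, 9.78, 10.09 and 10.12 in retina, against 8.59, 8.19, 8.80, 8.44 and 8.51 in cortex. Retina replicate 1 lay inside the cortex range, and the other 4 retina arrays lay above it. Its retina mean was 9.86 ± 0.72 and its cortex mean 8.51 ± 0.22, which left a difference of 1.36 (SE 0.35, limma adjusted p = 0.00381). Both means were below the olfactory receptor yardstick. How well the probe detects Gnb3 RNA was not tested, so the readings do not show that this RNA was scarce in retina. The call was lost without normalization (0.93, under 2-fold), against a 1.5-fold null (adjusted p = 0.0838) and with dim values raised to the 95th olfactory receptor percentile of their array (0.068, with all 10 arrays then at that level, so that only the levels themselves differ).

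Pdc was bright on every retina array and dim on every cortex array. Probe 925632 read 20.49, 20.42, 20.46, 20.30 and 20.75 in retina, against 8.65, 8.22, 9.25, 9.25 and 9.19 in cortex. Retina replicate 5 was the highest, with a deposited intensity of 1663869 against 1212199 to 1243206 on the other 4. Its retina mean was 20.48 ± 0.17 and its cortex mean 8.91 ± 0.46, and the difference was 11.57 (SE 0.16, limma adjusted p = 2.29e-18). The cortex mean was above 76.8% of olfactory receptor probes and below the yardstick.

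How large each difference can be said to be depends on the dim cortex signal. With every value below its array's 95th olfactory receptor percentile raised to that percentile, Gnat1 kept a difference of 9.55, a 748-fold ratio. Gngt1 was then at 10.23, Pdc at 9.66, the Gnat2 probes at 6.25 and 4.50 and Gngt2 at 3.34. The dimmer Gnat2 probe and Gngt2 were then under 32-fold. All 6 probes other than that of Gnb3 were still called.

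**Figure D2:**
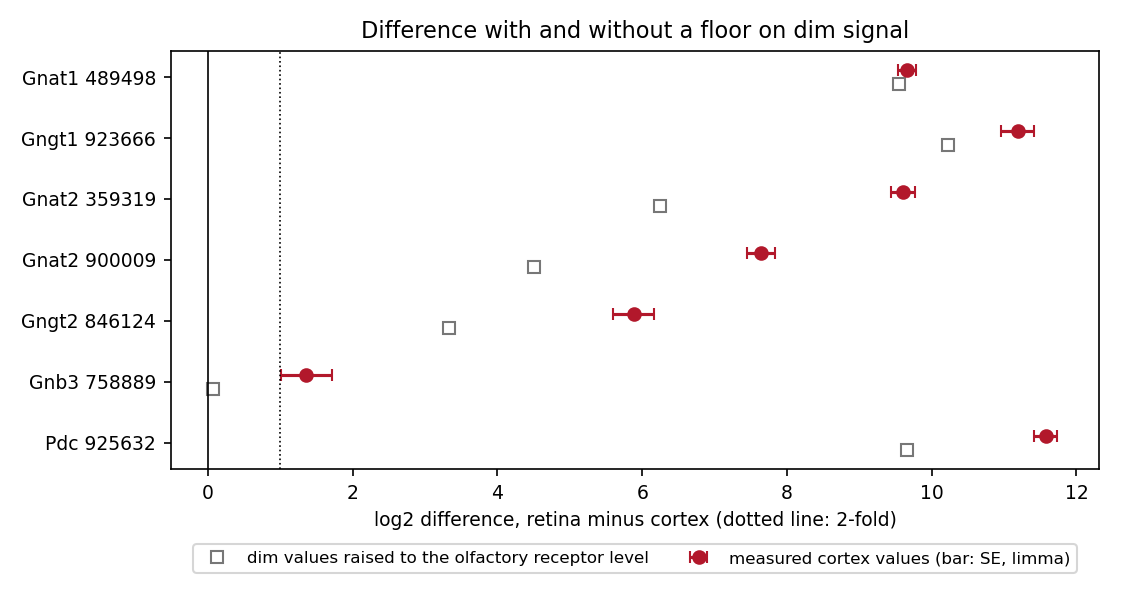
Log2 difference of each probe, retina minus cortex, as measured (red points, bars SE) and after dim values were raised to the olfactory receptor level of their array (grey squares). Gnat1 barely moves (9.66 as measured, 9.55 raised), the brighter Gnat2 probe falls to 6.25 and Gnb3 to 0.068.

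Whether the rod gene of a pair differed between tissues by more than its cone counterpart was asked for the alpha and the gamma subunits, the beta pair lacking Gnb1. As measured, the tissue difference of Gngt1 exceeded that of Gngt2 by 5.30 (SE 0.24, exact 2-sided permutation p = 0.00794, adjusted p = 0.0159 over the 2 pairs). Both cortex means were below the yardstick, so the excess rests on the retina signal of different probes and a larger tissue difference of the rod gene is not shown. For the alpha subunits, Gnat1 exceeded Gnat2 by 0.059 (SE 0.16, exact 2-sided permutation p = 0.714). That comparison rests on the brighter Gnat2 probe: with the dimmer probe, a choice made after its values were seen, the excess was 2.02, with the mean of both probes 1.04, with 100 added before the log 0.64, and with dim values raised 3.30 (exact permutation adjusted p = 0.00794 in each). The excess with the brighter probe was -0.04 to 0.16 on leaving out single arrays, and a p that misses the threshold does not show that the alpha genes differed alike.

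Repeat retina arrays lay close together for each member probe other than that of Gnb3, whose retina SD was 0.72. The retina SD was 0.07 to 0.17 for the 6 probes other than Gnb3, where the median SD of probes in the same decile of brightness was 0.101 or 0.104. Pdc, at 0.17, was more variable than 87.7% of its decile. Over the 5 retina arrays, 3 or 4 of the 7 probes lay above their own mean on each array, so no retina array was high or low for the members as a group. In cortex the SD ran from 0.22 for Gnb3 to 0.80 for Gngt2.

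Among other named genes, the profiles most like those of the members over the 10 arrays included those of other members. Each probe was centred on its own mean, and likeness was the root mean square distance in log2 units among 9311 candidate genes, which is a description with points shared within 2 pools. Candidates were genes whose mean in the brighter tissue was above the median of all probes. Near profiles had similar tissue differences, such as 9.66 and 9.60 for Gnat1 and Gnat2 and 11.19 and 11.57 for Gngt1 and Pdc. Likeness thus largely repeats the differences given above and is not separate from them. Gnat1 and Gnat2 were each other's nearest (0.226), followed by Rcvrn, the photoreceptor calcium sensor recoverin, for Gnat1 (0.275) and by Samd7, a photoreceptor repressor gene, for Gnat2 (0.282). The closeness of Gnat1 and Gnat2 rests on the brighter Gnat2 probe, with a difference of 9.60 beside 7.64 for the dimmer probe. It also rests on dim cortex values: with these raised, Gnat1 was at 9.55 and the brighter Gnat2 probe at 6.25. Gngt1 and Pdc were each other's nearest (0.372), and Rbp3, which binds retinoids between photoreceptors and pigment epithelium, came next for both (0.380 and 0.408). Gngt2 lay nearest to Nrn1l (0.340) and Gpr152 (0.349), and Gnb3 to Klhl38 (0.304) and Asb13 (0.363). Dim cortex values bear on these likenesses too. Cortex means of Gngt1 (9.86), Pdc (8.91), Rbp3 (8.41), Gngt2 (8.28), Nrn1l (9.53) and Gpr152 (8.79) were below the yardstick. So were those of Rcvrn (8.69) and Samd7 (8.28). Gnb3 and Klhl38 were below it in both tissues, and Asb13 was above it in both. With dim values raised, Gngt1 was at 10.23 and Pdc at 9.66.

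The receptors that switch transducin on and the phosphodiesterase it drives were also higher. All 6 measured genes of 8 listed were higher in retina, with a median difference of 8.55 (6.17 with dim values raised), where 14.2% of the 13840 named genes were called higher and 14.7% lower and their median was 0.00. Pde6b and Pde6a, the catalytic subunits of rod PDE6, were higher by 10.80 (SE 0.19) and 9.42 (SE 0.17), and Opn1sw, the short-wave cone opsin, by 9.53 (SE 0.20). The probes for the complex that speeds GTP hydrolysis by transducin, a single probe per gene, were split. Gnb5, its beta subunit, was higher, at 18.15 ± 0.14 in retina and 14.11 ± 0.12 in cortex (difference 4.05, SE 0.07). Rgs9, its catalytic subunit, was lower, at 11.97 ± 0.20 in retina and 14.30 ± 0.07 in cortex (-2.33, SE 0.09). Which transcript forms of Rgs9 the probe reads was not examined, so the lower value holds for that probe only. Rgs9bp, the membrane anchor of the complex, was at 0.87 (SE 0.35, limma adjusted p = 0.0542). It was called on leaving out retina replicate 4 or cortex replicate 4 (1.05 in each). Both Rgs9bp means, 9.22 in retina and 8.35 in cortex, were below the olfactory receptor yardstick. With dim values raised Rgs9bp was at 0.068 and not called.

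The genes that fold, carry and modify transducin subunits were mixed. Of 14 genes of folding and transport, 3 were higher, 0 lower and 11 not called, with a median of -0.20 (3 higher and 2 lower without normalization), beside 14.2% higher and 14.7% lower among all named genes. The 3 were Unc119, which binds the acylated end of the alpha subunit and carries it, at 20.32 ± 0.13 in retina and 15.06 ± 0.04 in cortex (5.26, SE 0.06), Gpsm2, an alpha subunit binding protein (4.93, SE 0.05), and Ric8b, a chaperone of alpha subunits studied chiefly for the Gs class (2.53, SE 0.07). The 8 genes of the CCT chaperonin, which folds beta subunits, were not called and lay between -0.75 (Tcp1) and -0.06 (Cct5). Of 6 measured genes of lipid attachment, 2 were higher, 1 lower and 3 not called, with a median of 0.92. Icmt and Rce1, which methylate and trim prenylated proteins such as gamma subunits, were higher by 4.54 (SE 0.05) and 1.75 (SE 0.09). Nmt2, an N-myristoyltransferase, was lower by the measured values (-2.30, SE 0.34, limma adjusted p = 1.97e-05), but with dim values raised it was at -0.089 and not called.

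The relatives and kinases of phosducin gave small or mixed differences, where 14.2% of all named genes were called higher and 14.7% lower. Of the 4 phosducin-like genes, Pdcl2 was higher (1.11, SE 0.39, limma adjusted p = 0.0265) from values dim in both tissues, 9.20 ± 0.78 in retina and 8.09 ± 0.39 in cortex. Its call was lost on leaving out any of 5 single arrays (retina replicates 1 and 4, cortex replicates 1, 2 and 5), where it was at 0.86 to 1.05. Pdcl, a cofactor of beta subunit folding, was at 0.69 (SE 0.06), Pdcl3 at -0.51 (SE 0.19) and Txndc9 at -0.33 (SE 0.10), all under 2-fold. The median of the 4 was 0.18. Without normalization it was -0.22, Pdcl3 was called lower (-1.03) and Pdcl2 was not called (0.69). Of 5 measured kinase genes, with a median of -0.58, Camk2d was higher (2.16, SE 0.05), Camk2b (-2.36, SE 0.07) and Camk2a (-1.02, SE 0.34) were lower, and Camk2g (-0.58) and Prkaca (-0.01) were not called. Camk2a was dim in both tissues, with a retina mean of 8.78 and a cortex mean of 9.80. It stood at 0.068 with dim values raised, where all 10 arrays stood at the raised level. Its call was also lost on leaving out any of 5 single arrays (retina replicates 2, 4 and 5, cortex replicates 4 and 5), at -0.98 to -0.88.

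**Figure D3:**
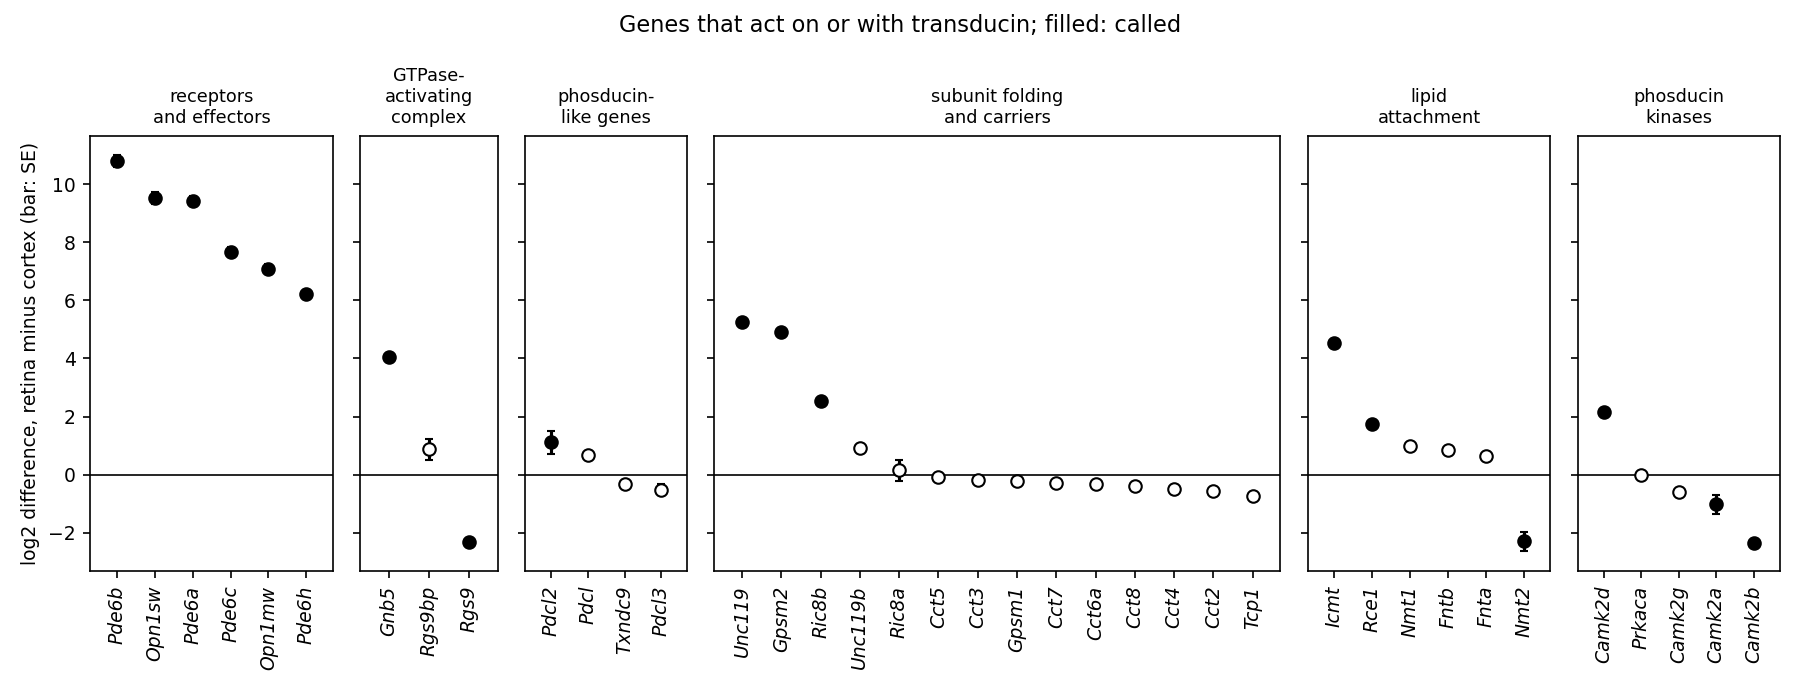
Log2 difference, retina minus cortex (points, bars SE from limma), of genes that act on or with transducin, by role; filled points were called. The 6 receptor and effector genes lie between 6.22 and 10.80, while the 8 chaperonin genes lie between -0.75 and -0.06.

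Other heterotrimeric G protein subunit genes were more often lower than higher in retina. Of 24 measured alpha, beta and gamma genes, 3 were higher in retina, 10 lower and 11 not called, with a median of -0.59 (-0.35 for alpha, -1.39 for beta and -1.28 for gamma genes), beside 14.2% higher and 14.7% lower among all named genes. The alpha genes Gnai3 (-1.75, SE 0.05) and Gnaq (-2.20, SE 0.27) were lower and Gna14 was higher (3.17, SE 0.29), at -1.36 for Gnaq and 1.24 for Gna14 with dim values raised. The other 8 of 11 were not called, Gnai2 at -0.06 among them. Of the beta genes, Gnb4 (-3.58, SE 0.13) and Gnb2 (-1.39, SE 0.05) were lower, against the higher Gnb5. Of 10 gamma genes, 6 were lower, led by Gng2 (-3.08, SE 0.06), Gng12 (-2.83, SE 0.11) and Gng10 (-2.78, SE 0.08). Gng13, the gamma subunit of ON bipolar cells, was higher, at 17.43 ± 0.12 in retina and 11.46 ± 0.04 in cortex (5.96, SE 0.06). Without normalization 4 alpha genes were lower instead of 2, and with median scaling 2 gamma genes were higher instead of 1.

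**Figure D4:**
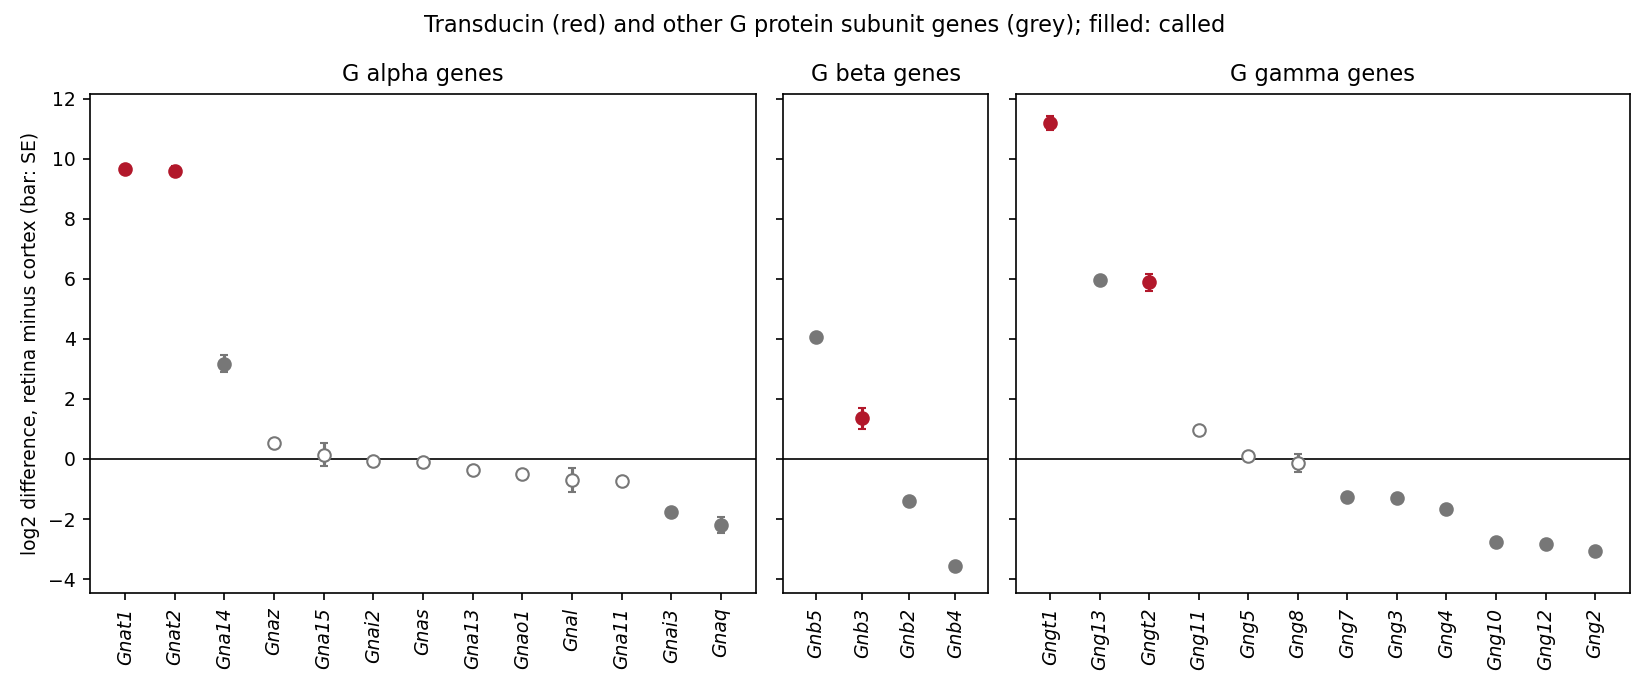
Log2 difference, retina minus cortex (points, bars SE from limma), of transducin genes (red) and other G protein subunit genes (grey), by alpha, beta and gamma class; filled points were called. Gnat1, Gnat2 (brighter probe only) and Gngt1 lie between 9.60 and 11.19. Gngt2, at 5.88, lies just under Gng13 (5.96), and Gnb3, at 1.36, lies under Gnb5 (4.05). Gng2 marks the lower end of the gamma class at -3.08.

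Most measured markers of other cells of the eye were also called higher in retina, beside 14.2% higher and 14.7% lower among all named genes. The summed normalized intensity of the 3 measured ON bipolar markers of 6 listed was 301900 to 343100 per retina array and 3268 to 6193 per cortex array. For the 6 retinal pigment epithelium markers it was 378400 to 511900 and 38590 to 42780, with 4 higher and Best1 and Tyr dim in both tissues. That sum is mostly Rlbp1, a gene of glia as well, which was bright in both tissues (18.40 in retina and 15.25 in cortex). For the 5 lens markers it was 80740 to 96970 and 2404 to 3411, with 3 crystallin genes higher and Mip and Bfsp1 dim in both tissues. Whether the retina pool held lens or pigment epithelium was not tested. The part of these markers' cells in the differences of Gnb3 and the other members was not tested either. The pineal gland also uses phosducin, and its single measured marker of 3 listed, Tph1, was not called (-0.91, SE 0.23). It was called lower on leaving out cortex replicate 4 (-1.06) and without normalization (-1.44). Its values were dim, with means of 9.80 in retina and 10.72 in cortex, and with dim values raised it was at -0.016 and not called. Aanat and Asmt had no probe with a single symbol.

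The genes beside the members on the chromosome gave calls in both directions. In the order of protein-coding genes of GRCm38.p6, 18 of the 24 genes that stand within 2 places of a measured member had a probe. Of these, 2 were higher, 5 lower and 11 not called, with a median of 0.17 and a highest value of 3.84 for Slc38a3, a glutamine transporter gene next to Gnat1, beside 14.2% higher and 14.7% lower among all named genes. Several of these calls rest on dim values: with them raised, Calcr was at 0.02, Igf2bp1 at -0.05, Cdca3 at -0.30 and Sema3f at 0.95, all under 2-fold. Alpha and gamma relatives lie among them. Gnai3, next to Gnat2, was lower (-1.75), Gnai2, near Gnat1, was at -0.06, and Gng11, next to Gngt1, was at 0.98 (SE 0.08), just under 2-fold. The neighbours of Pdc that were measured, Pla2g4a and Odr4, were at 0.39 and 0.49.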

How the data were processed

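Signal from retina and cortex RNA was compared on 10 single-channel arrays. Per the labels' protocols, cRNA labelled with digoxigenin was made from 1 µg of total RNA and read by chemiluminescence. The deposited table holds linear intensity values for 33012 probes, all above 0. How the authors read, background-corrected or scaled the arrays is not given in the sources used here. Groups and replicate numbers came from sample titles. Log2 values were quantile-normalized and compared with limma 3.58.1 in R 4.3.3 (eBayes with an intensity trend, 2-sided, no covariates), with Benjamini-Hochberg adjustment over all probes. SE is limma's after shrinkage. Rod and cone partners were compared by exact permutation in scipy 1.17.1. The 14411 probes with 1 symbol in the platform annotation named 13840 genes (14402 probes matched RefSeq by Entrez ID, with 0 symbols changed), and the brightest probe stood for a gene. The limma script was tested on simulated data. Depth is not defined for arrays; their number limits the precision.

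The members and gene lists were chosen with earlier results of these data known. Named genes were every member probe, up to 3 called genes per direction of each list by size, all genes of lists of 4 or fewer, and the 2 nearest genes by profile; others are examples chosen after their values were seen. Same-numbered arrays did not deviate together (correlation of deviations -0.05 to 0.10), so numbers were not used as pairs. Alternatives were other scalings, an offset of 100, no trend, a 1.5-fold null, dim probes left out, a floor at the 95th olfactory receptor percentile, a replicate block, single arrays left out, and the mean of a gene's probes.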

Additional observations from a re-analysis of the deposited data

Results flagged for a closer look

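Of 104 groups of 5 arrays looked at for a single array far from the other 4 (52 probes in each tissue), 4 held such an array, where chance flags about 1 group in 20. The brighter Gnat2 probe read 17.23 on retina replicate 3 and 17.02 to 17.05 on the other retina arrays, a gap that is small beside its difference of 9.60 from cortex. The other 3 were in cortex. Gnaq read 12.55 on cortex replicate 1 and 12.17 to 12.20 on the others. Prph2, a rod marker, read 10.96 on cortex replicate 3 and 8.78 to 8.91 on the others, and Grm6, an ON bipolar marker, read 11.57 on the same array and 7.70 to 8.33 on the others. On that array the members read 7.02 to 10.75.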

How the results depend on the processing

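The 6 member probes other than that of Gnb3 kept their call under every alternative tried, Gnat1 between 9.23 and 9.77, Gngt1 between 10.23 and 11.46, Pdc between 9.66 and 11.70, Gngt2 between 3.34 and 6.11, and the Gnat2 probes between 6.25 and 9.78 and between 4.50 and 7.82. Gnb3 was not called without normalization (0.93), against a 1.5-fold null (1.36) or with the olfactory receptor floor (0.068, the difference between the floors of the tissues), had no value with dim probes left out, and ranged from 1.16 to 1.67 with single arrays left out. The count of all probes called was 8379, against 4882 with that floor, and Camk2a was at 0.068 there, where its 10 values all stood at the floor, against -1.02 as measured. Gnat1 minus Gnat2 was past the threshold with the offset (0.64), the floor (3.30), the mean of the Gnat2 probes (1.04) and the dimmer Gnat2 probe (2.02). Gngt1 minus Gngt2 was 5.30 with the replicate block, as an exact sign-flip test over 5 pairs (adjusted p = 0.125), which is too small a design to pass; the block changed no other call among these results, and the count of all probes was 8398 with it. Of arrays with the same number, 1 of 5 retina arrays correlated best with its own number. Without normalization the median of all probes was -0.41 and 24.5% of calls were higher in retina, against 47.6% with quantile normalization; with median scaling the median was 0.13. Dim signal in cortex limits the folds of Gngt1, Gnat2, Gngt2, Gnb3 and Pdc. The Gnat1 fold was 808 as measured and 748 with the floor, from a cortex mean of 10.92 just above the yardstick of 10.65.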
